A study of Cyanidioschyzon merolae strain 10D with 3 samples.

Results

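The repetitive elements described here lie in the chromosome interiors of the unicellular red alga *Cyanidioschyzon merolae*. They were taken as the annotated nuclear loci whose identifier ends in X and whose nearer edge lies more than 20 kb from either end of their chromosome, with position 0 as 1 end and the end of the last listed locus as the other. That identifiers ending in X are the repetitive elements is an inference from the letter and from the size of the class, since the files do not state it. The rule gave 282 of 346 repetitive elements (81.5%), out of 6823 loci listed in all, and left 64 elements nearer the ends for comparison. The rule used identifier and position alone and no measured value, but it was set with earlier results of these data known.

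Polyadenylated RNA of strain 10D, grown in liquid culture, was sequenced in 3 RNA-seq libraries labelled biological replicates 1, 2 and 3, with nothing said of what separated the cultures. All cultures were kept at 42 °C in continuous light of 70 µmol with shaking at 150 rpm, and there was no second condition. The study made them to set transcript levels beside H3K27me3, the histone mark laid down by Polycomb repressive complex 2, and the mark itself was not analysed here. Levels are given as FPKM (fragments per kilobase of a locus, relative to the mapped fragments of its library), which the authors deposited with confidence limits for each locus.

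Repetitive elements are sequences present in several copies in a genome, many of them transposable elements or their remnants. Eukaryotic cells often keep such copies silent through chromatin, and in a number of unicellular eukaryotes H3K27me3 lies on repeats as well as on genes. In *C. merolae*, a compact genome with few introns, the repeats include transposable elements and a class derived from a viral reading frame, known as WSV repeats. The identifiers do not say which elements belong to which family, and none of the 346 has an entry in the RefSeq annotation, so the elements are called by their identifiers. Reads from near-identical copies may have been divided between them, and the level of any single copy is uncertain to that extent.

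By the confidence limits, the fragments behind the 4955 loci that overlap no other locus summed to 1.30e+07, 2.88e+06 and 2.98e+06 in libraries 1, 2 and 3. Plots in the study's supplement show similar fragment numbers for all of these libraries. The depth is therefore unsettled, and every fragment number below holds only if the limits reflect depth. By these fragments, libraries 2 and 3 differed by less than sampling noise. The mean chi-square of their fragments was 0.272 over all 4381 such loci with more than 20 fragments, and 0.230 over 60 interior elements, where independent sequencing of 1 RNA gives 1. Between library 1 and each of the others, this index for interior elements was 8.74 (library 2) and 7.75 (library 3). If libraries 2 and 3 were as deep as library 1, their index over all loci would be 1.21, about that of repeated sequencing of 1 RNA. Libraries 2 and 3 were therefore counted as 1 sample, and each mean with an SD has n = 2. Counted as 3 samples, a setting added after the data were seen, the libraries gave close to the same differences between classes of elements, and p = 0.25 in each exact sign-flip permutation test. Since nothing states that the cultures were separate, such an SD measures only the spread between these libraries, which may be technical.

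Most interior repetitive elements were listed at a very low level, and a minority reached the level of genes. The median FPKM of the 282 elements was 0.393, 0.421 and 0.467 in libraries 1, 2 and 3, or 0.414 ± 0.0290 (SD, n = 2). The mean was 6.18, 6.35 and 6.50 FPKM, or 6.30 ± 0.171 (SD, n = 2), far above the median because of a few high members. By their mean over the 3 libraries, 36 elements were listed at 0 and 22 lay above 0 but below 0.1 FPKM. A further 125 (44.3%) lay from 0.1 to below 1, 59 from 1 to below 10, and 40 at 10 FPKM or more. The 10 highest elements held 47.1% of the summed FPKM.

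Set against all listed loci, the interior elements were low. At least 1 FPKM was reached by 99 of the 282 elements (35.1%), against 89.3% of all 6823 loci, and at least 10 FPKM by 40 (14.2%), against 84.4% of all loci. Protein-coding loci of the same interiors, 4620 identifiers ending in C, had a median of 57.8, 60.9 and 60.5 FPKM in libraries 1, 2 and 3. Only 6 interior elements reached or exceeded their overall median of 59.6 FPKM. On the scale of log2(FPKM + 1), which understates differences between low loci, the mean of interior elements differed from that of interior protein-coding loci by -4.51, -4.62 and -4.59 in libraries 1, 2 and 3, or -4.56 ± 0.07 (SD, n = 2). The difference had the same sign in every library and was many times the spread between libraries, which does not measure the spread over loci. An exact two-sided sign-flip permutation test over the 2 independent samples gave p = 0.5, the smallest it can give, and even 3 libraries could not go below 0.25.

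The highest interior element was CMN008X, a locus of 743 bp at positions 20830 to 21572 of chromosome 14. Positions are those of the *C. merolae* Genome Project v3 annotation, counted from 1. CMN008X was listed at 155, 171 and 181 FPKM in libraries 1, 2 and 3. It shares its last 18 bp with the protein-coding locus CMN009C, which was listed at 95.5, 72.6 and 72.6 FPKM in the same libraries. The element was the higher of the pair in each library, and only library 1 had the gene above 90 FPKM. CMN008X is also the interior element closest to the 20 kb limit, at 20829 bp from its chromosome end.

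CMS129X came next, a locus of 2774 bp at positions 333231 to 336004 of chromosome 19 that overlaps no other locus. Its level was 113, 126 and 128 FPKM in libraries 1, 2 and 3. These values rest on 6619, 1659 and 1708 fragments by the confidence limits, so sampling error was small beside the difference of library 1 from the others.

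CMM246X on chromosome 13 (1815 bp) was listed at 89.5, 89.5 and 93.7 FPKM in libraries 1, 2 and 3. CMQ202X on chromosome 17 (2939 bp) had 78.1, 91.7 and 92.7 FPKM. CMJ048X on chromosome 10 (3336 bp) had 79.2, 73.1 and 76.2 FPKM. None of these overlaps another locus, and library 1 was the lowest for CMQ202X but the highest for CMJ048X.

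CMS277X on chromosome 19 (2106 bp) was listed at 64.2, 72.8 and 70.0 FPKM in libraries 1, 2 and 3. It shares 487 bp, 23.1% of its length, with the protein-coding locus CMS276C, which had 31.4, 33.0 and 34.8 FPKM. The element was well above its partner in each library, although reads within the shared stretch cannot be assigned from these values.

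Of the other members among the 12 highest, CMT507X, CML151X and CML031X overlap no other locus. CMT507X on chromosome 20 had 46.2, 63.2 and 62.5 FPKM in libraries 1, 2 and 3. CML151X on chromosome 12 had 61.8, 52.0 and 53.9 FPKM. CML031X, also on chromosome 12, had 57.7, 52.9 and 54.4 FPKM. Library 1 was thus low for CMT507X and high for both chromosome 12 elements.

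CMT146X, CMR387X and CMT458X each overlap another locus. CMR387X on chromosome 18 was listed at 44.7, 51.8 and 52.0 FPKM in libraries 1, 2 and 3 and shares 306 bp with the protein-coding locus CMR388C (22.5, 24.3 and 23.3 FPKM). CMT458X on chromosome 20 was listed at 40.1, 50.8 and 51.6 FPKM and shares 271 bp with CMT457Z (37.8, 52.7 and 51.4 FPKM), a locus with no RefSeq entry. CMR387X was above its partner in each library, whereas CMT458X and its partner were close. With libraries 2 and 3 counted as 1 sample, CMD149X on chromosome 4 would take the place of CMT458X among the 12 highest, at 46.7 against 45.6 FPKM. Of the 12 elements with the highest mean, 11 were among the 12 highest in each of the 3 libraries.

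**Figure D1:**
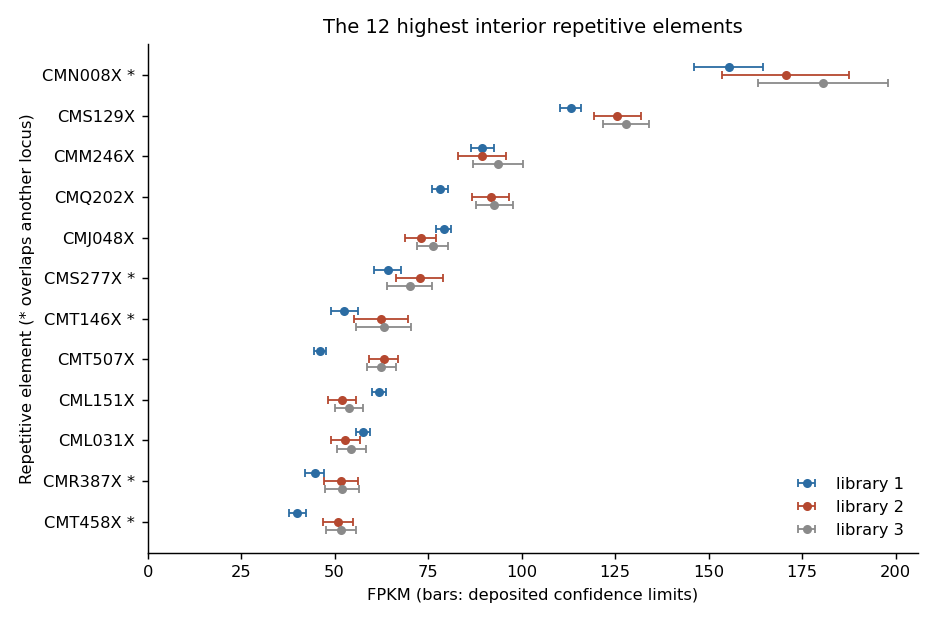
FPKM (x axis) of the 12 interior repetitive elements with the highest mean FPKM (y axis, highest at the top), with 1 point per library and bars for the deposited confidence limits. CMN008X lies apart at 155 to 181 FPKM, and library 1 is the lowest point for some elements and the highest for others.

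At the low end, depth limited what could be seen. Among the 214 interior elements that overlap no other locus, 132 (61.7%) had more than 3 fragments in every library by the confidence limits, against 35 of 50 near-end elements (70%) and 93.4% of all loci without overlap. More than 3 fragments were reached by 200 interior elements in library 1, but by only 142 in library 2 and 147 in library 3. The median interior element had 24.3, 6.0 and 7.0 fragments in libraries 1, 2 and 3. A count of 3 fragments stood for 0.0536, 0.237 and 0.233 FPKM at the median element, so by the limits values under 0.2 FPKM in libraries 2 and 3 rest on a few fragments or none. In sum, the 214 elements held 0.597%, 0.589% and 0.592% of the fragments of loci without overlap in libraries 1, 2 and 3, and the 50 near-end elements held 0.0173%, 0.0179% and 0.0174%. These shares varied little between libraries.

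The libraries ranked the interior elements alike. Over the 282 elements Spearman's rho of library 1 was 0.931 with library 2 and 0.940 with library 3, and that of libraries 2 and 3 was 0.965. These are across elements, which share libraries and possibly reads, and no p-value was calculated. Among the 60 elements without overlap that had more than 20 fragments in each library, library 1 differed from the mean of libraries 2 and 3 by a median of -0.04 on the log2 scale (SD over elements 0.40), and was the higher in 28 of 60. The extremes were CMT557X at -1.21 and CMH228X at 0.75, both named after their values were seen. A total of 7 of the 60 differed by more than 1.5 times in this way, and 0 did so between libraries 2 and 3.

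Interior elements had a higher mean than near-end elements, but a similar median. The mean FPKM of the 282 interior elements was 6.18, 6.35 and 6.50 in libraries 1, 2 and 3, against 0.979, 0.883 and 0.910 for the 64 near-end elements, or ratios of 6.31, 7.2 and 7.14. The mean log2(FPKM + 1) was higher in the interior by 0.57, 0.60 and 0.62, or 0.59 ± 0.03 (SD, n = 2). The exact sign-flip permutation test gave p = 0.5, the smallest possible. The difference was more than 20 times the spread between libraries, which does not measure the spread over elements. The difference of the medians on the same scale was -0.02, 0.06 and 0.10 in libraries 1, 2 and 3, or 0.02 ± 0.06 (SD, n = 2), which did not exceed that spread. The median FPKM of near-end elements was 0.416, 0.363 and 0.367, so library 1 had the interior median slightly below and the others slightly above.

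The difference lay in the upper tail. At least 10 FPKM was reached by 40 interior elements (14.2%) but by 1 near-end element (1.56%), and at least 1 FPKM by 99 (35.1%) against 14 (21.9%). The upper quartile was 2.68 FPKM in the interior and 0.865 near the ends, and the highest 10% began at 16 FPKM in the interior and 2.24 FPKM near the ends. At the other end the lower quartile was 0.135 FPKM in the interior and 0.259 near the ends, and 22 interior elements but 0 near-end elements lay above 0 and below 0.1 FPKM. From 0.1 to below 1 FPKM lay 125 interior elements (44.3%), against 45 near-end elements (70.3%). The interior quartile includes 36 elements listed at 0, of which 34 overlap another locus. Among elements without overlap the lower quartile was 0.208 FPKM in the interior and 0.272 near the ends. In libraries 2 and 3, 3 fragments stood for 0.237 and 0.233 FPKM at the median interior element without overlap. Interior elements thus reached higher, whereas a wider spread downward rests on few fragments and is uncertain. The 64 near-end elements had a similar median length, 2668.5 bp against 2576.5 bp in the interior, and a similar share that overlap another locus, 21.9% against 24.1%. Among elements without overlap the mean difference was 0.66, 0.67 and 0.71, or 0.68 ± 0.02 (SD, n = 2), and 30 of 214 interior elements but 0 of 50 near-end elements reached 10 FPKM.

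**Figure D2:**
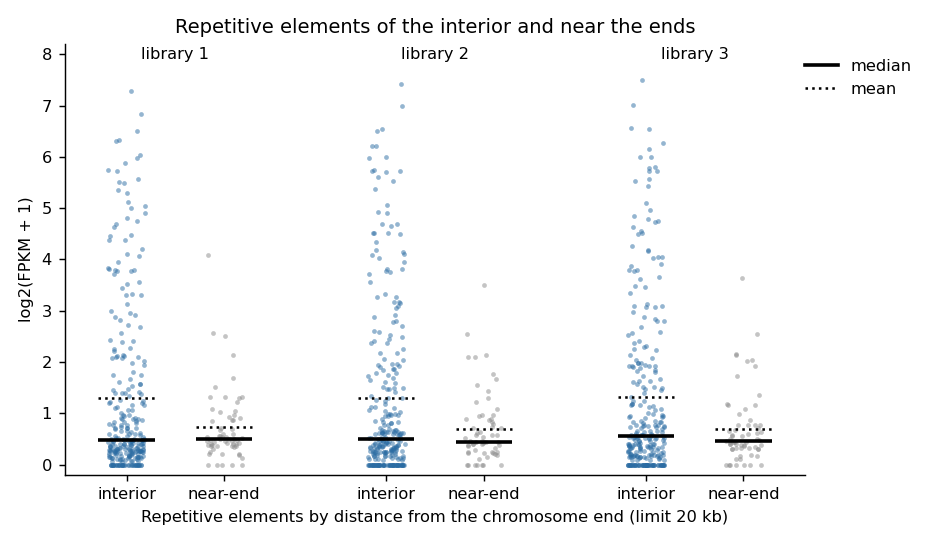
Level on the log2(FPKM + 1) scale (y axis) of 282 interior and 64 near-end repetitive elements in libraries 1, 2 and 3 (x axis), with 1 point per element, a solid line for the median and a dotted line for the mean. The medians of both sets lie close together, while only the interior set has a long upper tail.

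The 3 highest near-end elements were CMC007X, CMI001X and CMB160X. CMC007X had 16.1, 10.3 and 11.5 FPKM in libraries 1, 2 and 3 and shares 746 bp with CMC006T, a locus of the class that RefSeq annotates as miscellaneous RNA. CMI001X had 4.68, 4.83 and 4.81 FPKM, and CMB160X had 3.38, 3.41 and 3.44 FPKM. All 3 would rank below the 12 highest interior elements in every library.

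The 20 kb limit falls among elements of very different level. Just inside it, after CMN008X, lay CMF008X at 21172 bp from its end, with 6.60, 7.99 and 7.41 FPKM in libraries 1, 2 and 3, and CMP011X at 22798 bp, with 0.315, 0.111 and 0.110 FPKM. Just outside it lay CMJ007X at 19446 bp, with 0.0968, 0.357 and 0.354 FPKM, CMC007X at 15864 bp, and CMK007X at 15561 bp, with 0.953, 0.915 and 0.710 FPKM. Neither side was uniformly high or low. Without CMN008X, a setting added after the data were seen, the mean log2 difference between interior and near-end elements was 0.57.

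Within the interior, the share of elements at 1 FPKM or more was larger in the bands farther from the ends. It was 25.9% of 27 elements at 20 to 50 kb, 24.5% of 49 at 50 to 100 kb, 31.9% of 69 at 100 to 200 kb, 40.2% of 97 at 200 to 400 kb and 47.5% of 40 beyond 400 kb. Near the ends it was 20.8% of 48 elements within 10 kb and 25% of 16 at 10 to 20 kb. The medians of the interior bands were 0.292, 0.440, 0.301, 0.521 and 0.707 FPKM in the same order, without a steady rise. The share of elements that overlap another locus moved with distance too, being 51.9%, 34.7%, 21.7%, 15.5% and 17.5% in these bands, but elements without overlap gave much the same pattern. Among them 30.8%, 25%, 38.9%, 40.2% and 48.5% reached 1 FPKM in the 5 bands, and the medians were 0.364, 0.465, 0.588, 0.560 and 0.782 FPKM. Across the 282 elements Spearman's rho of distance and FPKM was weak, at 0.053, 0.114 and 0.119 in libraries 1, 2 and 3, and across the 214 without overlap it was -0.015, 0.063 and 0.061. The bands also hold different chromosomes, since short chromosomes reach only the nearer bands. Chromosomes 1, 2, 3 and 7, where every element had a mean below 1 FPKM, have interiors of 380 to 541 kb. None of their elements can lie beyond 400 kb, so distance and chromosome were not separated. Elements were sparser in the interior, with 1.80 per 100 kb against 8 per 100 kb near the ends.

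**Figure D3:**
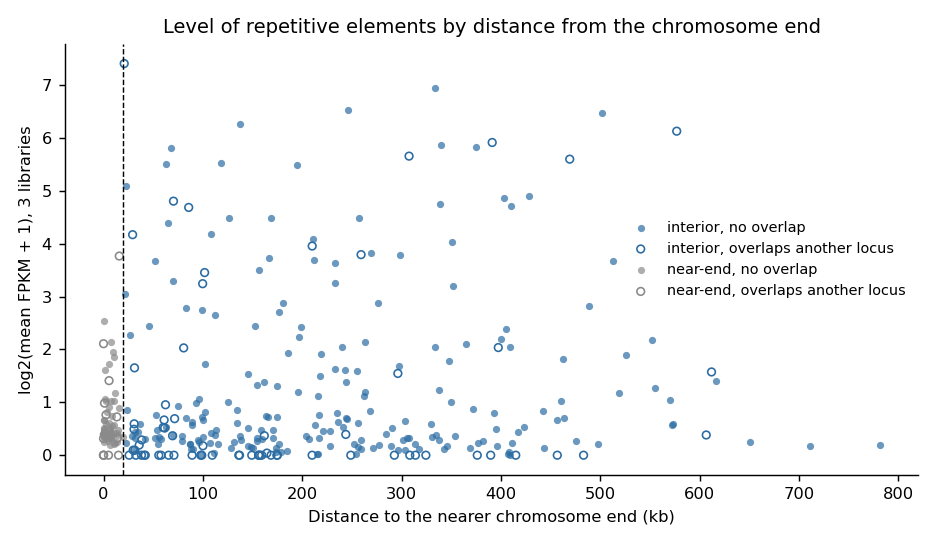
Level of each repetitive element on the log2(mean FPKM + 1) scale (y axis) by its distance to the nearer chromosome end in kb (x axis), with the dashed line at 20 kb, blue for interior and grey for near-end elements, and open circles for elements that overlap another locus. High elements occur from just inside the limit to beyond 400 kb, and the single near-end element above 10 FPKM is CMC007X.

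The 20 chromosomes held between 2 (chromosome 1) and 29 (chromosome 20) interior elements, and the number was larger where the interior was longer (Spearman's rho 0.866 over 20 chromosomes). The density ran from 0.526 per 100 kb on chromosome 1 to 2.89 per 100 kb on chromosome 16. On chromosomes 1, 2, 3 and 7 every interior element had a mean below 1 FPKM over the 3 libraries, and CMB068X in library 3 was the single value above 1. The highest by that mean were CMA126X at 0.385, CMC073X at 0.394 and CMG134X at 0.445 FPKM, and on chromosome 2 CMB068X at 0.641 and CMB033X at 0.627. CMB068X had 0, 0.556 and 1.37 FPKM in libraries 1, 2 and 3, and with libraries 2 and 3 counted as 1 sample it averaged 0.481 FPKM, below CMB033X at 0.683 FPKM, which was named after its values were seen. Chromosome 11 held 1 element above 1 FPKM, CMK094X at 1.18. These 5 chromosomes hold few elements each, from 2 to 7. The other 15 chromosomes each held an element at 10 FPKM or more.

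Chromosomes 4, 5 and 18 were the only chromosomes whose median interior element exceeded 1 FPKM. On chromosome 4 the median of 9 elements was 6.71, 5.10 and 4.91 FPKM in libraries 1, 2 and 3. All 4 of its elements without overlap exceeded 1 FPKM, led by CMD149X at a mean of 44.9 FPKM, whereas 2 of its 5 overlapping elements were listed at 0. On chromosome 5 the median of 4 elements was 8.18, 4.57 and 5.31 FPKM, with CME039X highest at 17.2. On chromosome 18 the median of 18 elements was 1.21, 1.23 and 1.38 FPKM, and 11 (61.1%) reached 1 FPKM, led by CMR387X. The medians of chromosomes 4 and 5 rest on few elements, and that of chromosome 18 on more.

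**Figure D4:**
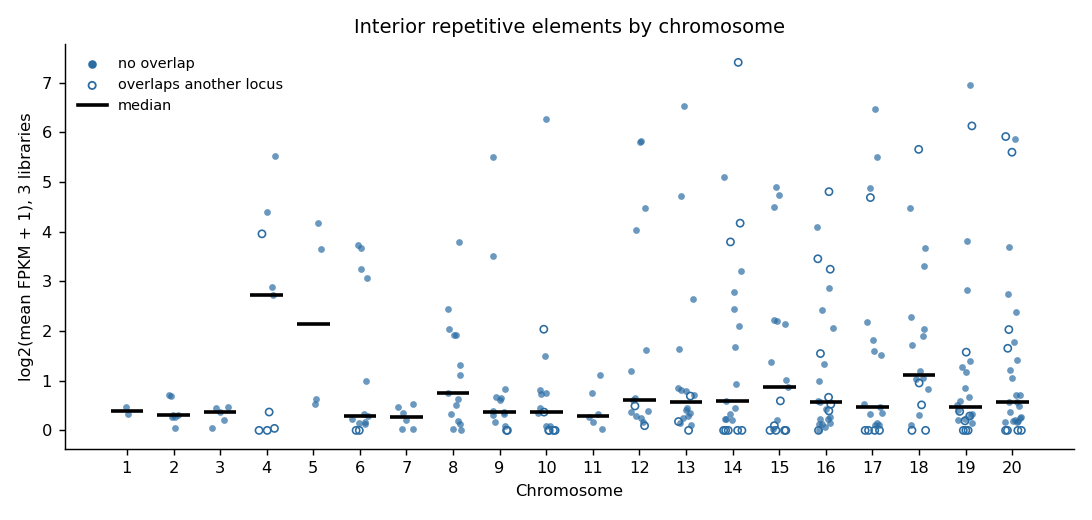
Level of the 282 interior repetitive elements on the log2(mean FPKM + 1) scale (y axis) by chromosome (x axis), with filled points for elements without overlap, open circles for those that overlap another locus, and a black line for the median. Chromosomes 1, 2, 3 and 7 hold only elements with a mean below 1 FPKM, and the medians of chromosomes 4, 5 and 18 lie highest.

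Interior elements were 429 to 5253 bp long, and length said little about level. Across the 282 elements Spearman's rho of length and mean FPKM was -0.00017, and across the 214 without overlap 0.127. At least 1 FPKM was reached by 6 of 22 elements under 1000 bp, 25 of 65 from 1000 to below 2000 bp, 42 of 120 from 2000 to below 3000 bp and 26 of 75 of 3000 bp or more. The medians of these classes were 0.463, 0.444, 0.527 and 0.292 FPKM. The longest class had the lowest median, but 24 of its 75 elements overlap another locus and 14 were listed at 0. Among its 51 elements without overlap the median was 0.604 FPKM.

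The longest element, CMO011X on chromosome 15 (5253 bp), had 0.671, 0.376 and 0.482 FPKM in libraries 1, 2 and 3. CMN025X on chromosome 14 (4492 bp) overlaps another locus and was listed at 0 in all 3. CMR300X on chromosome 18 (4220 bp) overlaps none and had 2.48, 2.79 and 2.94 FPKM. The 3 longest elements therefore covered the range of an ordinary interior element.

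The shortest element, CMP196X on chromosome 16 (429 bp), was listed at 0 in all 3 libraries. CMM101X on chromosome 13 (489 bp) had 1.37, 2.12 and 2.79 FPKM from 9.59, 3.0 and 4.0 fragments, so the difference between its libraries is not detectable at this depth. CMS222X on chromosome 19 (576 bp) had 0.520, 0 and 1.02 FPKM.

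Nearly all interior elements listed at 0 were elements that overlap another locus. Of the 68 interior elements that share at least 1 bp with another locus, 34 (50%) were listed at 0 in all 3 libraries, against 2 of the 214 without overlap (0.935%), CMH033X and CMP196X. Over all loci the share listed at 0 throughout was 6.07%. Near the ends it was 5 of 14 overlapping elements and 0 of 50 without overlap. The program may assign the reads of overlapping loci to one of them, so a listed 0 at an overlapping element was not taken as a lack of transcripts. For CMH033X and CMP196X, each with 0 fragments, transcripts of up to 3 fragments per library are not excluded.

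The sign of the difference between overlapping and other elements depended on which elements were counted. Among elements with a mean of at least 1 FPKM, the 17 that overlap exceeded the 82 without overlap by 0.99 on the mean log2(FPKM + 1) scale. That filter is on the level itself and leaves out the elements listed at 0. The part of read assignment in this difference was not tested. Over all elements, the overlapping ones were lower by a mean difference of -0.27, -0.26 and -0.31 in libraries 1, 2 and 3, or -0.28 ± 0.01 (SD, n = 2, with the smallest possible p = 0.5 in the exact sign-flip permutation test). The mean FPKM was 7.27, 7.94 and 8.03 in overlapping elements, against 5.83, 5.85 and 6.01 in those without overlap. The higher mean of overlapping elements rests on few of them. Their 10 highest held 93.1% of their summed FPKM, against 53.8% among elements without overlap. CMN008X, which counts as overlapping through 18 bp, alone had 155, 171 and 181 FPKM in libraries 1, 2 and 3. The median was 0 in overlapping elements in all 3 libraries, against 0.467, 0.530 and 0.612. Where only a share of at least 50% of the element counted as overlap, the log2 difference was -0.03.

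The kind of partner went with the listed level. Protein-coding loci were partners of 18 interior elements, of which 7 were listed at 0 and 9 reached 1 FPKM. Loci ending in T, the miscellaneous RNAs, were partners of 20 elements, of which 16 were listed at 0. Loci ending in Z were partners of 16 elements, of which 10 were at 0, and other repetitive elements were partners of 21, of which 8 were at 0 and 1 reached 1 FPKM. An element with partners of more than 1 kind counts under each. Of the 8 at 0 with a repetitive partner, CMD177X, CMD178X, CMO292X, CMO294X and CMO295X also overlap a locus ending in T or Z. Those 8 thus do not describe elements whose partners are all repetitive, of which there were 16. The partners of the 34 elements at 0 had a median of 48.6 FPKM, and those of the other 34 had a median of 6.59 FPKM. These medians mix kinds of partner of very different level. The median was 0.0678 FPKM for partners that are repetitive elements. It was 41.9 for protein-coding partners, 49.1 for those ending in T and 16.2 for those ending in Z. Partner level was thus not separated from partner kind.

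The length shared did not separate the elements at 0 from the rest. The median overlap was 10.1% of the element, and of the 34 elements with less than 10% shared 18 were at 0, against 6 of the 11 with 50% or more. CMQ015X, chosen after its values were seen as the extreme case, shares 2 bp with the protein-coding locus CMQ016C and was listed at 0 in all 3 libraries. CMQ016C had 54.6, 60.1 and 64.4 FPKM in libraries 1, 2 and 3.

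Repetitive elements also overlapped each other. CMT145X on chromosome 20 (2751 bp) contains the whole of CMT146X (1214 bp), and both end at position 392423. CMT146X was listed at 52.6, 62.4 and 63.1 FPKM in libraries 1, 2 and 3, and CMT145X at 0 in all 3. The level listed for this stretch therefore stood wholly at the shorter element, which is the 7th highest of the interior. In another overlapping pair, both elements were low. CMO010X had a mean of 0.0683 FPKM and shares 2318 bp with CMO011X, the longest interior element, at a mean of 0.509 FPKM.

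Most elements that lay within 1 kb of another repetitive element were low. A total of 43 interior elements lay within 1 kb of another repetitive element and formed 20 groups, 17 of 2 and 3 of 3 elements. Their median FPKM was 0.151, 0.137 and 0.136 in libraries 1, 2 and 3, against 0.447, 0.501 and 0.553 for the 239 single elements. At least 1 FPKM was reached by 6 of the 43 (14%) and by 93 of the 239 (38.9%). CMT146X and CMT557X, at means of 59.4 and 11.9 FPKM, were the 2 of the 43 at 10 FPKM or more. In 16 of the 20 groups every member was below 1 FPKM. The mean log2(FPKM + 1) of grouped minus single elements was -0.85, -0.83 and -0.87, or -0.85 ± 0.0034 (SD, n = 2), with the smallest possible p = 0.5 in the exact sign-flip permutation test. That SD is small because the mean of libraries 2 and 3 fell close to library 1. With the libraries counted as 3 samples the SD was 0.024.

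Grouped elements differed from single ones in other ways too. They were shorter, with a median of 1214 bp against 2606 bp, and 22 of the 43 (51.2%) overlap another locus, against 19.2% of single elements. Among elements without overlap the difference was -0.77 ± 0.06 (SD, n = 2, 21 against 193 elements), and among elements of at least 1000 bp it was -0.73. It depended on the distance that defines a group. With elements within 5 kb of another taken as grouped, 76 against 206, it was -0.11, and 23 of the 76 (30.3%) reached 1 FPKM.

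The 3 largest groups had 3 members each. On chromosome 15, CMO292X, CMO294X and CMO295X overlap in a chain and also share bases with CMO293T, and all 3 were listed at 0 in every library while CMO293T had 50.1, 48.8 and 48.4 FPKM. On chromosome 19, CMS069X had 0.096, 0 and 0.222 FPKM in libraries 1, 2 and 3, and the overlapping pair CMS070X and CMS072X was listed at 0. On chromosome 8, none of the group of CMH085X, CMH086X and CMH089X overlaps another locus.

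CMH085X had 1.4, 0.976 and 1.11 FPKM in libraries 1, 2 and 3. CMH086X had 0.106, 0.164 and 0.482 FPKM from 3, 1 and 3 fragments. CMH089X had 3.28, 2.23 and 2.77 FPKM. In each library the order within the group was the same, with CMH086X, the middle one by position, lowest.

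**Figure D5:**
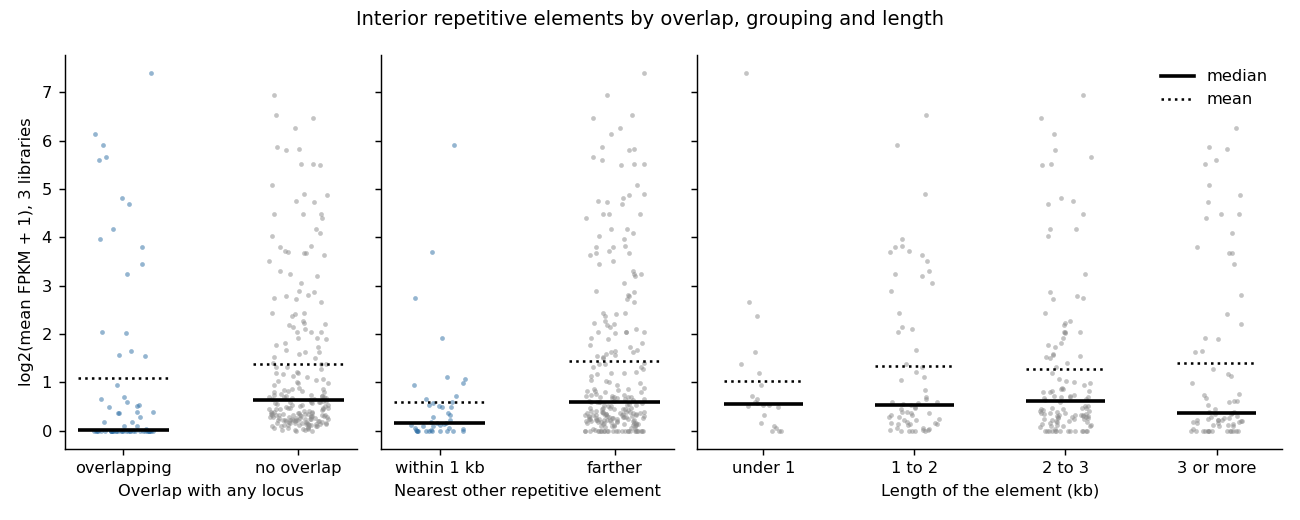
Level of the 282 interior repetitive elements on the log2(mean FPKM + 1) scale (y axis), by overlap with any locus (68 overlapping, 214 without), by the nearest other repetitive element (43 within 1 kb, 239 farther) and by length in kb, with 1 point per element, a solid line for the median and a dotted line for the mean. The median of overlapping elements lies near 0 and that of grouped elements below that of single elements, while the length classes overlap widely.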

How the data were processed

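The authors sequenced paired-end libraries of polyadenylated RNA and, per the labels and the study's methods, checked reads with FastQC and estimated levels with Cufflinks on the *C. merolae* Genome Project v3 annotation. How reads with several matches were treated is not given in the sources used here. The deposited values are FPKM per locus and library with confidence limits, and replicates were not pooled. FPKM are not counts and no count test was run. The limits span 2 SD either way, and the fragments behind a value were calculated as the square of FPKM over SD. They were used only at loci without overlap. Among interior elements under 50 fragments, numbers within 0.05 of a whole one made up 66.2%, 83.3% and 82.1% of those without overlap in libraries 1, 2 and 3, and 6.67%, 5.26% and 5.26% of those that overlap. The relative depth of the libraries rests on these limits alone.

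Starts were raised by 1 so that positions count from 1. The class of a locus was read from the last letter of its identifier, and the RefSeq table (ASM9120v1) was used for gene types, not positions. Classes were compared within each library on log2(FPKM + 1), with an exact two-sided sign-flip permutation test over the 2 independent samples. Methods were tested on simulated data. The members, lists and rules were chosen with earlier results of these data known. The text names the 12 highest interior elements, the highest of each chromosome where described, the 3 longest and 3 shortest, the 3 largest groups, the 3 on either side of the limit, the 3 highest near-end elements, and loci that these overlap. Other loci were named after their values were seen. Alternatives were a pseudocount of 0.1, filters on level, length and overlap, medians, other limits, chromosome means, a scaling to protein-coding loci, and each library left out in turn. No genome was used here, and no sequences were analysed. Calculations ran in Python 3.11.15 (pandas 2.3.3, numpy 2.4.6, scipy 1.17.1), and plots were drawn with matplotlib 3.10.9.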

Additional observations from a re-analysis of the deposited data

How the results depend on the processing

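The difference between interior and near-end elements was 1.42 among loci of at least 1 FPKM. For medians over loci it was 0.02 (-0.02, 0.06 and 0.10 in libraries 1, 2 and 3), so it did not exceed the spread and library 1 had the other sign. It was positive under the other 11 alternatives. That from protein-coding loci kept its sign under all 11, reaching -5.91 with the pseudocount at 0.1 and -2.93 among loci of at least 1 FPKM. The difference of grouped from single elements kept its sign under all 13, from -1.60 with a pseudocount of 0.1 to -0.11 with groups within 5 kb. The difference of overlapping from other elements reversed to 0.99 among loci of at least 1 FPKM, where the elements listed at 0 are left out, and was negative under the other 10 alternatives. The median FPKM of interior elements was 0.501 among elements without overlap and 6.07 among those of at least 1 FPKM. With more than 10 fragments required in every library, 78 elements remained of 132. The rank correlation of length and FPKM was 0.0276 with ends of 50 kb, 0.127 without overlapping elements, 0.218 among elements of at least 1 FPKM, 0.0088 with the libraries counted as 3 samples, and from 0.0028 to 0.0080 with each library left out in turn. Counted as 3 samples, a setting added after the data were seen, the libraries gave 0.60 ± 0.02 for interior against near-end, -4.57 ± 0.06 against protein-coding loci, -0.28 ± 0.03 for overlap and -0.85 ± 0.02 for grouping (SD, n = 3, exact p = 0.25 each). None of these tests could pass a threshold with 2 or 3 samples, so the alternatives compare sizes and signs. No paired analysis was possible because the 3 libraries belong to 1 group, so no replicate number links samples of different conditions, and classes of loci were compared within each library instead. Elements with few fragments in libraries 2 and 3 cannot be ranked against each other, and the part of read assignment in the levels of overlapping elements was not tested.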

Other observations

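The loci beside the interior elements were mostly listed above the element. The nearest locus that is not itself a repetitive element and does not overlap the element was protein-coding in 261 of 282 cases. It lay at a median gap of 200.5 bp and had a median of 73.5 FPKM, and it was higher than the element in 269 of 282 cases. Of all 4620 interior protein-coding loci, 93.7% had a mean of at least 10 FPKM and the median was 59.6, while the median element had 0.437. Most such loci therefore exceed most elements wherever they lie, and the count is not particular to neighbours. The neighbour was not higher at 8 of the 40 elements of 10 FPKM or more, against 5 of the other 242. That split is by the level of the element itself, so a difference in this direction follows from it and tells nothing of the neighbours. The median of these neighbours was 84.6 FPKM beside the 40 high elements and 72.5 FPKM beside the other 242. Across the 282 pairs Spearman's rho of element and neighbour was 0.018, a description over pairs that come from the same libraries and in part share neighbours.

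A total of 37 of the 282 interior elements have exactly the length of another repetitive element. How many would match in length by coincidence was not calculated, so the count does not show that they are copies. As a separate matter, the pairs CMP023X with CMP024X on chromosome 16 and CMR481X with CMR482X on chromosome 18 each overlap by 46 bp. They were named after their values were seen. Within each pair the lengths differ, at 961 and 897 bp for CMP023X and CMP024X, and 876 and 909 bp for CMR481X and CMR482X. CMP023X had 0.517, 0.538 and 0.264 FPKM in libraries 1, 2 and 3, and CMP024X had 0.399, 0.552 and 0.810 FPKM. CMR481X had 1.08, 1.16 and 0.569 FPKM, and CMR482X had 0.492, 0.531 and 0.259 FPKM. Their sequences were not analysed here.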
